A study of Mus musculus with 6 samples.

Results

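Histone demethylases with a Jumonji C (JmjC) domain remove methyl groups from histone lysines, and each turn of the reaction uses molecular oxygen, 2-oxoglutarate and iron and releases succinate. They belong to the same class of oxygenases as the prolyl hydroxylases that mark HIF-1α for degradation, and some of them are known targets of HIF-1 in other cells. The KDM2 and KDM4 enzymes act on H3K36, KDM3 and KDM4 on H3K9, KDM5 on H3K4 and KDM6 on H3K27. In T cells, KDM6B (also called JMJD3) is known as an activation-induced demethylase of the repressive H3K27 mark and has been linked to helper T cell differentiation.

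The transcripts of 10 such enzymes, *Kdm2a*, *Kdm2b*, *Kdm3a*, *Kdm3b*, *Kdm4a*, *Kdm4b*, *Kdm4c*, *Kdm5a*, *Kdm5b* and *Kdm6b*, were followed. They were chosen by gene symbol, and all 10 were found among the 16244 genes listed. In the study, 3 libraries of WT and 3 of RORγtN275D Th17 cells were compared by RNA-seq. The WT cells came from C57BL/6 mice and the mutant cells from knockin mice on a C57BL/6 background that carry the N275D substitution in the ligand-binding domain of RORγt. Both genotypes were naive CD4+ T cells from spleen, and were activated with anti-CD3 and anti-CD28 and cultured for 3 days under pathogenic Th17 conditions. The study design names IL-6, IL-1β and IL-23 for these conditions, whereas the methods also list TGF-β and antibodies against IL-4 and IFN-γ. The labels give only the genotype and do not say whether the knockin donors were homozygous, and the oxygen level of the cultures is not given in the sources used here. The methods state an age of 6 to 12 weeks and the use of both sexes for mice in general, and the labels do not give the sex. The methods list different sources for WT and knockin mice in general, and name littermate controls, when applicable, for the cell transfers. The listed WT strain is C57BL/6NJ, and the knockin background is given only as C57BL/6. Which WT mice gave these libraries is not stated. If the sources differed here too, genotype and mouse source cannot be told apart in this comparison. Nothing in the labels says that the 3 libraries of a genotype came from separate mice, so p-values measure only the spread between libraries.

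Library totals over all genes ran from 17659035 to 18510878 reads. The members were well covered, with at least 647 reads for every member in every library, and all 10 passed the filter on low values. The Th17 markers *Il17a*, *Il17f*, *Il23r*, *Ccr6* and *Rora* were detected in every library and called higher in mutant cells, and the T cell markers *Cd3e* and *Cd4* were detected in every library and called lower. The N275D substitution cannot be read from gene totals, so the labels could not be checked in this way. Markers of other cells were low. The 5 B cell markers summed to between 150 and 160 normalized reads in WT and between 214 and 273 in mutant libraries, and 3 of the 4 tested were called higher. The B cell marker *Ms4a1* had too few reads to be tested, and was at 0 in 2 WT libraries and reached 9.88 normalized reads in a mutant library. The 4 CD8 T and natural killer cell markers analysed summed to between 182 and 195 in WT and between 251 and 281 in mutant libraries, with *Klrb1c* at 0 in all mutant libraries, and 2 of the 3 tested, *Cd8b1* and *Eomes*, were called higher. *Cd8a* was not called (32.6 ± 6.70 normalized reads for WT, 27.6 ± 2.67 for N275D, SD, n = 3 each). The 5 myeloid markers summed to between 46.4 and 52.5 in WT and between 43.1 and 56.9 in mutant libraries, but of the 2 tested, *Adgre1* was called lower (22.6 ± 3.22 to 6.64 ± 3.05 normalized reads, SD, n = 3 each) and *Cd14* higher (11.3 ± 3.56 to 22.9 ± 0.960). The part of these cells in the results below was not tested. In bulk libraries, fewer cells of a type and less RNA per cell cannot be told apart.

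To show what the promoters of these genes hold, 3 sequences are printed, from RefSeq on GRCm38.p6. The first 2 are the 250 bases before an annotated start of *Kdm4c* and of *Kdm4a*, and the third is a window of 30 bases in a *Kdm3a* promoter. The genes were taken because *Kdm4c* and *Kdm3a* are known as HIF-1 targets in other cells and *Kdm4a* is a relative of *Kdm4c*. Of the 2 *Kdm4c* and 3 *Kdm3a* entries, the only one of each gene that holds a match is shown, and both windows lie inside the annotated gene. Capitals mark ACGTG and GCGTG, the core letters of HIF response elements, on either strand, with overlapping matches joined.
*Kdm4c*, chr4:74251629-74251878, plus strand: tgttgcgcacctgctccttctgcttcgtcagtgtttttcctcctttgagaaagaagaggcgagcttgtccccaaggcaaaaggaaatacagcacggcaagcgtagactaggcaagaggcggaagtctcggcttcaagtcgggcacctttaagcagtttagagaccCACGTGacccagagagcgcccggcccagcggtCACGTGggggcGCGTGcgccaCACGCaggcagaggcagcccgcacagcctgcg
*Kdm4a*, chr4:118180044-118180293, minus strand: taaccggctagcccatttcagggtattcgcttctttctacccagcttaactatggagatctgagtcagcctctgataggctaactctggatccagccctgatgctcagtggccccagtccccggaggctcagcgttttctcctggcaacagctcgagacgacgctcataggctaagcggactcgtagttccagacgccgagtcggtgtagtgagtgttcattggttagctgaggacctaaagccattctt
*Kdm3a*, chr6:71632927-71632956, minus strand: ccgggaggctgtGCGTGtcttgtgagagag
The *Kdm4c* window held 4 matches of ACGTG, which are 2 copies of the palindrome CACGTG read on both strands, and 2 of GCGTG. The *Kdm4a* window held none. The *Kdm3a* match began 27 bases before the start. Promoters were listed for 5 members, with 11 entries in all, and 7 of the 11 held ACGTG or GCGTG, where 38.6% of all 32851 promoter windows of this length did. A pair of the *Kdm2b* entries and a pair of the *Kdm3a* entries overlap, so these 11 are not independent. Both motifs contain the letters CG, and the 32851 windows were not matched to the members for base composition. The share of G and C ran from 39.6% in a *Kdm4c* entry to 80.8% in a *Kdm2b* entry. The ROR core motif AGGTCA, searched on both strands, was in 1 of the 11, the other *Kdm4c* entry, and in 14.0% of all windows. *Kdm2a*, *Kdm3b*, *Kdm4b*, *Kdm5a* and *Kdm6b* had no entry.

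Between the genotypes, 4 of the 10 demethylases were called higher in RORγtN275D Th17 cells and 3 lower at an adjusted p under 0.05. *Kdm4a*, *Kdm4b*, *Kdm5a* and *Kdm3b* rose, and *Kdm6b*, *Kdm3a* and *Kdm2b* fell. *Kdm2a*, *Kdm4c* and *Kdm5b* were not called. Such calls were common in these data, since 50.9% of the 11908 genes tested were called, 24.7% higher and 26.1% lower, and the 7 of 10 members are to be read against that. Under quantile normalization the split was 5 higher and 2 lower. The changes were small. Fitted ratios of mutant to WT ran from 0.776 for *Kdm6b* to 1.27 for *Kdm4b*, and 0 of the 10 were called at 2-fold, beside 3.59% of all genes tested. The median log2 fold change of the members was 0.090, beside -0.0026 over all genes tested. The genotypes did not overlap for 8 of the 10 members, beside 57.7% of all genes tested. In 4 of the 8 the mutant libraries were higher (28.1% of all genes tested) and in 4 lower (29.6%).

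**Figure D1:**
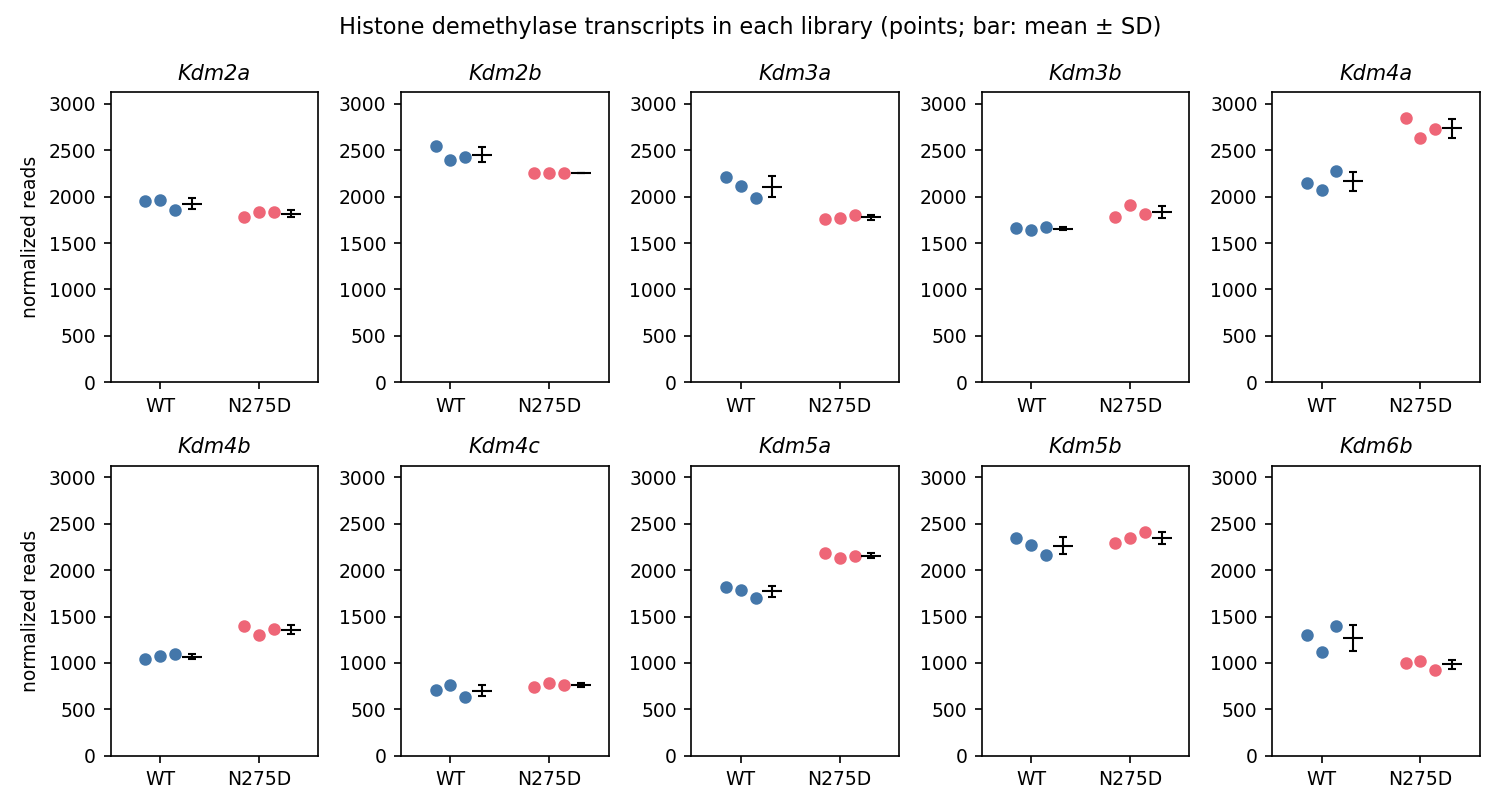
Each panel plots 1 demethylase on a common axis of normalized reads starting at 0, with 1 point for each of the 3 WT (blue) and 3 N275D (red) libraries and a bar for the mean ± SD. *Kdm4a*, *Kdm4b*, *Kdm5a* and *Kdm3b* lie higher in every mutant library, *Kdm6b*, *Kdm3a*, *Kdm2b* and *Kdm2a* lower, and *Kdm4c* and *Kdm5b* overlap.

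KDM4 enzymes remove the di- and trimethyl marks of H3K9 and H3K36. *Kdm4a* (chromosome 4, 118136957 to 118180043) had 2152, 2075 and 2278 normalized reads in the WT libraries and 2844, 2636 and 2728 in the mutant libraries. All 3 mutant libraries lay above all 3 WT libraries. Its mean went from 2168 ± 102 to 2736 ± 104 (SD, n = 3 each), which was 0.34 ± 0.045 (SE) on the log2 scale with a limma adjusted p = 1.47e-05. *Kdm4b* (chromosome 17, 56326062 to 56402870), another gene known as a HIF-1 target in other cells, had 1038, 1071 and 1098 normalized reads in WT and 1403, 1306 and 1366 in mutant libraries. The lowest mutant library exceeded the highest WT library. The rise of *Kdm4b* from 1069 ± 30.4 to 1358 ± 48.7 (SD, n = 3 each) came to 0.34 ± 0.048 (SE) on the log2 scale with a limma adjusted p = 1.90e-05, the highest log2 fold change of the 10. *Kdm4c* (chromosome 4, 74242497 to 74405860) had 709, 759 and 636 normalized reads in WT and 743, 787 and 759 in mutant libraries. WT replicate 2 lay within the mutant range, so the genotypes overlapped. Its log2 fold change of 0.13 (95% confidence interval -0.0088 to 0.26) was not called (adjusted p = 0.110 from limma), but without WT replicate 2 it was 0.18 and was called (adjusted p = 0.0272). *Kdm4c* had the fewest reads of the 10, and its WT libraries had a coefficient of variation of 8.83%.

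KDM5 enzymes remove methyl groups from H3K4, a mark of active promoters. *Kdm5a* (chromosome 6, 120364124 to 120444574) had 1820, 1792 and 1701 normalized reads in WT and 2181, 2133 and 2155 in mutant libraries. The mutant libraries were all higher, and were close to each other. Its mean rose from 1771 ± 61.9 to 2156 ± 24.3 (SD, n = 3 each), which was 0.28 ± 0.042 (SE) on the log2 scale with a limma adjusted p = 3.83e-05. *Kdm5b* (chromosome 1, 134560171 to 134635285), known as a hypoxia-induced gene in other cells, had 2345, 2276 and 2163 normalized reads in WT and 2290, 2342 and 2414 in mutant libraries. The groups overlapped widely. Its log2 fold change of 0.055 had a 95% confidence interval from -0.036 to 0.15 and was not called (adjusted p = 0.301 from limma). Under quantile normalization *Kdm5b* was called, at 0.12 (adjusted p = 0.0417). The X-linked paralogue *Kdm5c*, which is not a member, had 5334 ± 23.1 and 5478 ± 119 normalized reads (SD, n = 3 each) and was not called either (limma adjusted p = 0.376).

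KDM3 enzymes remove the mono- and dimethyl marks of H3K9. *Kdm3a* (chromosome 6, 71588972 to 71632990), a HIF-1 target in many cells, had 2213, 2119 and 1988 normalized reads in WT and 1755, 1766 and 1807 in mutant libraries. Every mutant library lay below every WT library. Its mean fell from 2107 ± 113 to 1776 ± 27.6 (SD, n = 3 each), which was -0.25 ± 0.046 (SE) on the log2 scale with a limma adjusted p = 0.000331. In the same libraries, *Hif1a* had 5294, 5345 and 4772 normalized reads in WT and 8777, 8734 and 8845 in mutant cells. All mutant libraries were higher, by 0.78 on the log2 scale in the fit (limma adjusted p = 4.00e-10). *Kdm3b* (chromosome 18, 34777047 to 34838660), the closest relative of *Kdm3a*, had 1657, 1640 and 1668 normalized reads in WT and 1783, 1906 and 1812 in mutant libraries. It rose from 1655 ± 14.0 to 1834 ± 64.3 (SD, n = 3 each), which was 0.15 ± 0.043 (SE) on the log2 scale with a limma adjusted p = 0.00916. This call was lost without N275D replicate 2, the highest of the mutant libraries (log2 fold change 0.12, adjusted p = 0.0717). Where strand is not used, reads of a gene and of its antisense partner cannot be told apart. A long noncoding gene on the opposite strand, *Gm26538*, covers 24.6% of the exon bases of *Kdm3b*, and although the libraries were strand-specific, whether the counting used the strand is not given in the sources used here. The third gene of the KDM3 subfamily, *Jmjd1c*, rose, in normalized reads, from 1749 ± 76.8 to 2033 ± 105 (SD, n = 3 each), which was 0.22 on the log2 scale with a limma adjusted p = 0.00148.

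KDM6 enzymes remove methyl groups from H3K27, the mark set by Polycomb repressive complex 2. *Kdm6b* (chromosome 11, 69398508 to 69413675) had 1298, 1121 and 1398 normalized reads in WT and 998, 1025 and 927 in mutant libraries. The WT libraries were spread more widely than for any other member, with a coefficient of variation of 11.0%, but each of them lay above all mutant libraries. The mean of *Kdm6b* fell from 1272 ± 140 to 984 ± 50.6 (SD, n = 3 each), which was -0.37 ± 0.068 (SE) on the log2 scale with a limma adjusted p = 0.000319, the lowest log2 fold change of the 10. Exons of the antisense gene *Kdm6bos* cover 4.11% of its exon bases. Its X-linked paralogue *Kdm6a* (also called UTX), which is not a member, went the other way. *Kdm6a* had 1546, 1584 and 1541 normalized reads in WT and 1844, 1866 and 1903 in mutant libraries, with no overlap. The change in *Kdm6a* came to 0.26 ± 0.041 (SE) on the log2 scale with a limma adjusted p = 6.39e-05.

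KDM2 enzymes act on H3K36 and carry a CXXC zinc finger that binds unmethylated CpG DNA, by which KDM2B brings a Polycomb complex to CpG islands. *Kdm2b* (chromosome 5, 122870665 to 122989823) had 2542, 2391 and 2430 normalized reads in WT and 2259, 2254 and 2255 in mutant libraries. The mutant libraries were almost equal, with an SD of 2.75, and all lay below the WT libraries. Their coefficient of variation of 0.12% was below the 2.11% given by read counting alone at the lowest read number of *Kdm2b*. This SD is therefore no measure of how closely libraries repeat. The fall of *Kdm2b* from 2454 ± 78.8 to 2256 ± 2.75 (SD, n = 3 each) came to -0.12 ± 0.04 (SE) on the log2 scale with a limma adjusted p = 0.0191. This was the least stable of the 7 calls. It was lost without WT replicate 1 (log2 fold change -0.095, adjusted p = 0.0945) and on leaving out any N275D replicate (0.0568 for replicate 1, 0.0644 for 2 and 0.0567 for 3), under quantile normalization (-0.056, adjusted p = 0.258) and in eBayes without a trend (adjusted p = 0.0532). Exons of *Rnf34*, on the opposite strand, cover 5.77% of the exon bases of *Kdm2b*, and *Rnf34* was itself higher (log2 fold change 0.18, adjusted p = 0.0236 from limma). *Kdm2a* (chromosome 19, 4314419 to 4398285) had 1951, 1967 and 1860 normalized reads in WT and 1777, 1837 and 1837 in mutant libraries. The groups did not overlap, but the lowest WT library lay close to the highest mutant libraries. Its log2 fold change of -0.084 (95% confidence interval -0.17 to 0.0058) was not called (adjusted p = 0.110 from limma). Without WT replicate 3, the lowest WT library, it was -0.11 and was called (adjusted p = 0.0190).

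**Figure D2:**
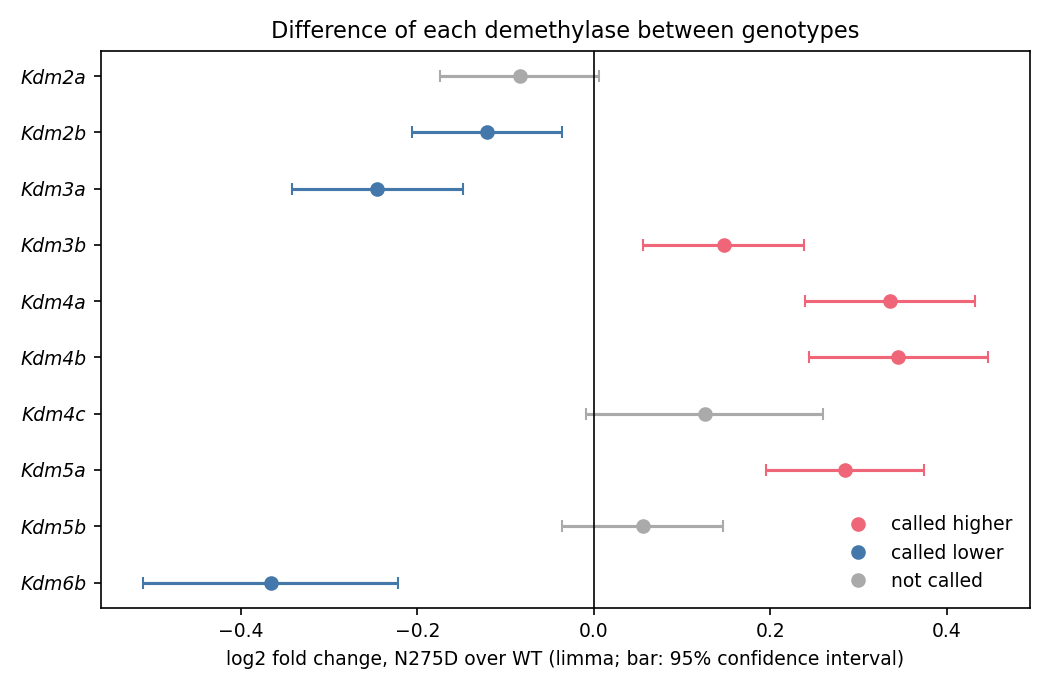
The log2 fold change of each demethylase (x axis, N275D over WT, limma) is plotted with its 95% confidence interval, in red where called higher, blue where called lower and grey where not called. All 10 lie between -0.37 for *Kdm6b* and 0.34 for *Kdm4a* and *Kdm4b*, well inside the range from -1 to 1 that bounds 2-fold.

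Relatives were also compared with each other within each library. The log2 ratio of 2 relatives within a library does not depend on how that library was scaled, and 7 such ratios were compared between genotypes. Each difference of a ratio is the difference of the fold changes of its genes given above, from the same libraries, and is no separate evidence of them. The ratio of *Kdm3a* to *Kdm3b* was 0.42, 0.37 and 0.25 on the log2 scale in WT libraries and -0.023, -0.11 and -0.0039 in mutant libraries, a difference in the mean of -0.39. The ratio was lower in every mutant library than in any WT library. It is a ratio of reads, not of levels per length. The ratio of *Kdm6b* to *Kdm6a* was -0.25, -0.50 and -0.14 in WT and -0.88, -0.86 and -1.04 in mutant libraries, a difference of -0.63. The ratio of *Kdm5a* to *Kdm5b* was -0.37, -0.34 and -0.35 in WT and -0.070, -0.14 and -0.16 in mutant libraries, a difference of 0.23. In these 3 pairs the genotypes did not overlap, and each had p = 0.1 in a two-sided exact permutation test, the smallest this test can give with 3 libraries against 3 (adjusted p = 0.233 over the 7 pairs). In the other 4 pairs the genotypes overlapped, with differences of 0.037 for *Kdm2a* to *Kdm2b*, -0.0091 for *Kdm4a* to *Kdm4b*, 0.21 for *Kdm4a* to *Kdm4c* and 0.22 for *Kdm4b* to *Kdm4c*. *Kdm4a* and *Kdm4b* thus kept nearly the same ratio, of 1.02 ± 0.057 in WT and 1.01 ± 0.011 in mutant libraries on the log2 scale (SD, n = 3 each), and that difference changed sign when WT replicate 1 or 3 was left out.

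**Figure D3:**
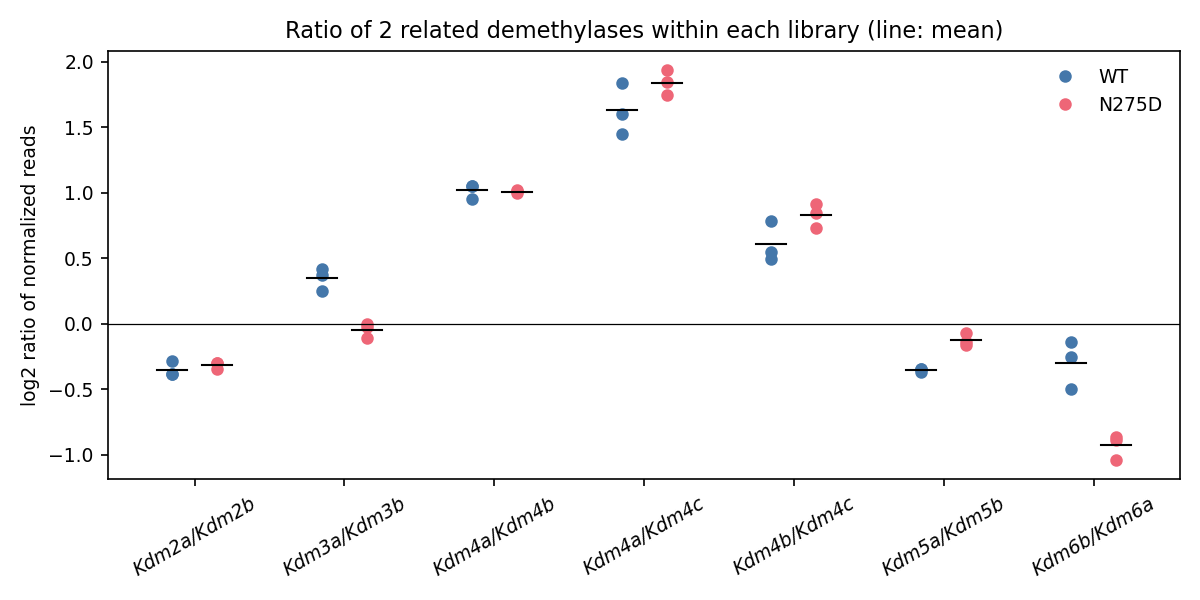
The y axis is the log2 ratio of normalized reads of 2 related demethylases, with 1 point per library for WT (blue) and N275D (red) and a line at the mean. *Kdm3a*/*Kdm3b*, *Kdm5a*/*Kdm5b* and *Kdm6b*/*Kdm6a* separate the genotypes, and the other 4 ratios overlap.

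Levels can be compared between genes only per length, and were taken per kb of merged exons. This length joins the exons of all annotated transcripts of a gene, and can exceed that of the transcripts expressed. It ran from 4895 bases for *Kdm4b* to 16555 for *Kdm5b*, so the order of the genes below depends on the annotation. *Kdm4a* had the highest level in both genotypes, at 375 ± 17.7 normalized reads per kb in WT and 473 ± 18.01 in mutant libraries (SD, n = 3 each). In WT libraries it was followed by *Kdm3a* (256 ± 13.8 per kb), *Kdm2b* (226 ± 7.25) and *Kdm4b* (218 ± 6.20), of which *Kdm2b* and *Kdm4b* overlapped. *Kdm6b* came next at 183 ± 20.2 per kb. The remaining 5 lay between 117 per kb for *Kdm3b* and 137 for *Kdm5b*. Among them *Kdm5b* overlapped *Kdm2a*, and *Kdm4c* overlapped *Kdm2a*, *Kdm5a* and *Kdm3b*. In mutant libraries *Kdm4b* followed *Kdm4a*, at 277 ± 9.94 per kb, above *Kdm3a* at 216 ± 3.36, and *Kdm5a* was the fifth at 152 ± 1.71. *Kdm6b*, at 141 ± 7.28 per kb, ranked lower there than in WT and overlapped its neighbours *Kdm5b* and *Kdm4c*. Summed over the 10 members, normalized reads were 17725, 17210 and 17220 in WT and 18033, 17992 and 18060 in mutant libraries, so that each mutant library lay above each WT library.

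**Figure D4:**
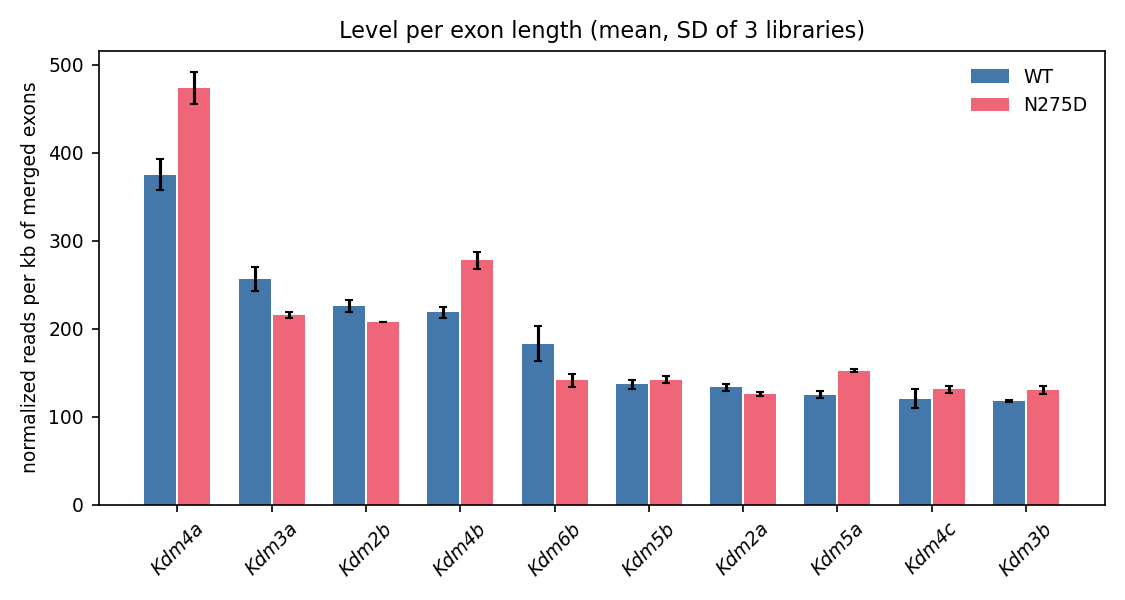
Bars give the mean level of each demethylase in normalized reads per kb of merged exons, in WT (blue) and N275D (red) libraries, with the SD of 3 libraries, in the order of the WT level. *Kdm4a* is the highest in both genotypes, and *Kdm4b* lies below *Kdm3a* in WT and above it in N275D.

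Of the 4 members listed as HIF-1 or hypoxia targets in other cells (*Kdm3a*, *Kdm4b*, *Kdm4c* and *Kdm5b*), 1 was called higher, *Kdm4b*, and 1 lower, *Kdm3a*. Of the other 6 members, 3 were called higher and 2 lower, beside 24.7% and 26.1% of all genes tested. The median log2 fold changes were 0.090 and 0.032. Of the 7 HIF subunits and hydroxylases listed, 6 were called higher and 1 lower, beside the same 24.7% and 26.1%, with a list median of 0.41. The 1 lower was *Vhl*, the ubiquitin ligase subunit that binds hydroxylated HIF and is in the list beside them. The largest changes there were in *Epas1*, which encodes HIF-2α and had few reads (20.4 ± 3.43 in WT and 57.1 ± 4.75 in mutant libraries, log2 fold change 1.45), and *Hif1a* (0.78).

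Other enzymes of the JmjC and related oxygenase families were listed from general knowledge. Their counts, and those of the flavin-dependent, methyltransferase and Polycomb lists below, are to be read against the 24.7% called higher and 26.1% called lower among all genes tested. Of 17 other JmjC genes tested, 3 were called higher and 6 lower, with a median log2 fold change of -0.058. *Kdm7a*, a demethylase of H3K9 and H3K27, rose most among the calls (0.60, from 390 ± 30.8 to 590 ± 43.6 normalized reads, SD, n = 3 each, adjusted p = 5.16e-06 from limma), and *Jmjd4*, a protein lysyl hydroxylase, fell most (-0.41, adjusted p = 6.73e-05 from limma). Of 12 TET dioxygenases and AlkB homologues, many but not all of which oxidise or demethylate nucleic acids, 3 were called higher and 1 lower. *Tet2* rose by 0.46 on the log2 scale (from 2016 ± 82.0 to 2768 ± 79.2 normalized reads, SD, n = 3 each). *Alkbh4* was the next largest (0.29). Of 8 genes for the flavin-dependent demethylases, which do not use 2-oxoglutarate, and their CoREST partners, 2 were called higher, *Rcor2* (0.93) and *Rcor3* (0.42), and 1 lower. Under quantile normalization 4 were higher and 0 lower, and the lower call was also lost without WT replicate 2, N275D replicate 2 or N275D replicate 3.

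The methyltransferases that set the marks removed by these enzymes were compared in the same fit. Of 10 H3K4 methyltransferase genes and core subunits, 1 was called higher and 3 lower, and *Setd1b* (-0.38) and the subunit *Dpy30* (-0.26) fell most. Of 6 for H3K9, 1 was higher, *Ehmt2* (0.16), and 2 lower, with *Suv39h2* (-0.30) changing most. Of 4 for H3K27, 1 was called higher and 2 lower. *Ezh2*, the catalytic subunit of Polycomb repressive complex 2 in dividing cells, fell, in normalized reads, from 3021 ± 206 to 2372 ± 61.3 (SD, n = 3 each, log2 fold change -0.35, adjusted p = 1.93e-05 from limma). *Ezh1* rose by 0.27, and the other lower call was *Eed* (-0.26). The H3K27 methyltransferase *Ezh2* and the H3K27 demethylase *Kdm6b* were thus both lower in mutant cells, and *Ezh1* and *Kdm6a* both higher. *Kdm7a*, which also acts on H3K27, was higher too. Of 6 for H3K36, 2 were higher, *Setd2* (0.34) and *Nsd3* (0.26), and 2 lower. In the Polycomb complex that contains KDM2B, 2 of 10 subunits were higher and 3 lower, and with 1 library left out 1 to 2 were higher and 1 to 2 lower. *Bcor*, its scaffold, fell, in normalized reads, from 4643 ± 82.7 to 3184 ± 109 (SD, n = 3 each), which was -0.54 on the log2 scale with a limma adjusted p = 1.04e-08, a larger change than that of any of the 10 demethylases, and *Cbx8* fell by 0.31.

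Also tested were 20 enzymes that make or use the cosubstrate 2-oxoglutarate or remove the inhibitory products succinate and fumarate. Of these, 13 were called lower and 4 higher, with a median log2 fold change of -0.16, beside 26.1% and 24.7% of all genes tested. Under quantile normalization 9 of them were called lower and 4 higher. With 1 library left out, 10 to 12 were lower and 3 to 4 higher. *Idh1*, the cytosolic enzyme that converts isocitrate to 2-oxoglutarate, fell, in normalized reads, from 621 ± 29.9 to 350 ± 21.6 (SD, n = 3 each), which was -0.83 on the log2 scale with a limma adjusted p = 4.48e-08. *Got1*, an aminotransferase that uses 2-oxoglutarate, rose by 0.33. Each subunit of succinate dehydrogenase listed (*Sdha*, *Sdhb*, *Sdhc* and *Sdhd*) was called lower, with log2 fold changes from -0.28 to -0.14, as was *Fh1* (-0.17), which encodes fumarase. These are transcript levels, and neither metabolite levels nor demethylase activity were measured in these libraries. In other samples of WT and mutant Th17 cells, the paper profiled metabolites and reports that citrate, succinate and malate were raised in the mutant. A link between those levels and these transcripts was not tested.

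**Figure D5:**
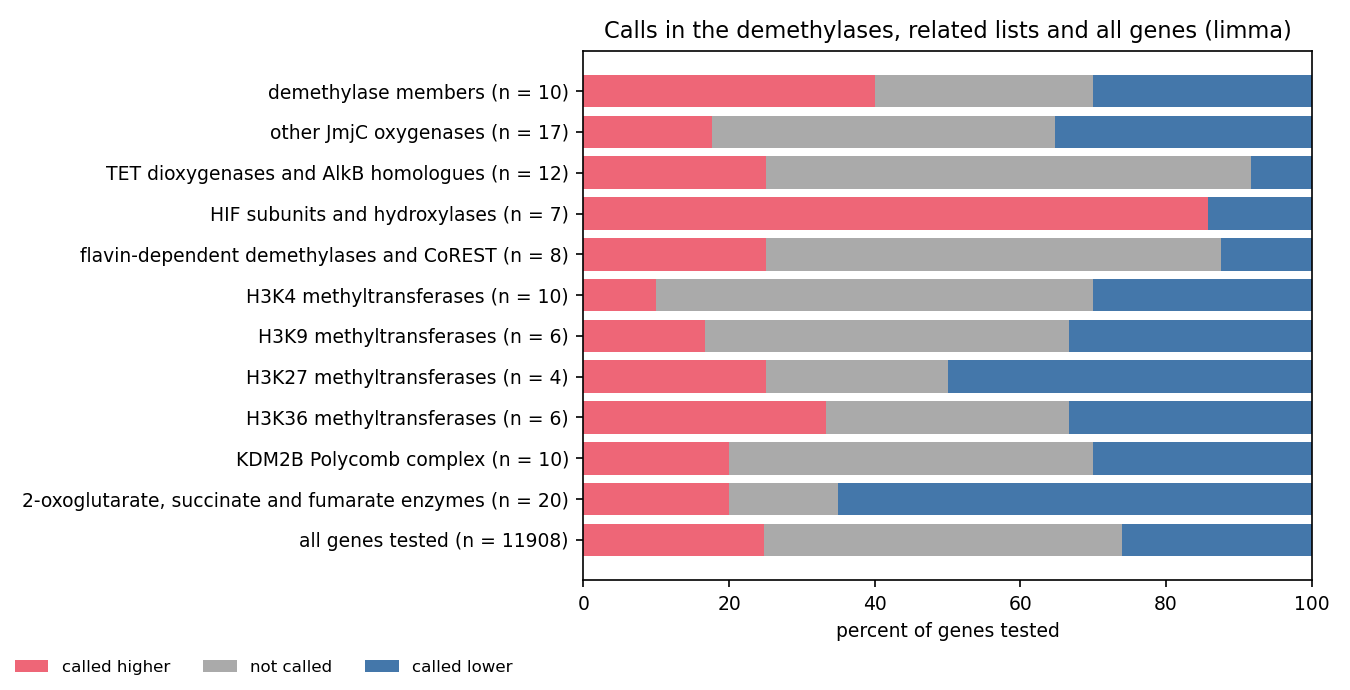
For each list, and for all 11908 genes tested, the bar splits the genes tested into those called higher in N275D (red), not called (grey) and called lower (blue), in percent. The HIF subunits and hydroxylases have the greatest share called higher (6 of 7) and the 2-oxoglutarate, succinate and fumarate enzymes the greatest share called lower (13 of 20), while the demethylases have 4 of 10 higher and 3 of 10 lower.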

How the data were processed

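RNA-seq values of 3 WT and 3 RORγtN275D Th17 libraries were used. According to the methods, the authors trimmed reads, aligned them to mm10 with STAR and counted them with featureCounts. The deposited signal is a normalized read number that the authors obtained by scaling each library with a single factor. Dividing by it gave whole reads, within 1e-06, for 100% of values. The deposited log2 fold changes and p-values (q-values) of the authors were not used. Genes with a mean of at least 10 were tested with limma (version 3.58.1, R 4.3.3) with a trended prior (12 degrees of freedom) on log2(normalized reads + 1), without a block, and called at a Benjamini-Hochberg adjusted p under 0.05. Fold changes are on that scale. The members and lists were chosen with earlier results of these data known. All members are named, and of each list up to 2 called genes of largest change, beside *Kdm6a*, *Kdm5c*, *Jmjd1c* and *Hif1a*. *Vhl*, *Eed*, *Rnf34*, *Gm26538*, *Kdm6bos*, *Fh1*, the *Sdh* genes and the marker genes were named for their values or their place. Coordinates and exon lengths are from GENCODE vM21 (GRCm38, the build mm10). On these reads, edgeR 4.0.16 and DESeq2 1.42.0 were run as alternatives. Others changed the pseudocount, the filter, the scaling, the trend or the block, or left out 1 library. The level of 1 listed marker gene is not reported here.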

Additional observations from a re-analysis of the deposited data

How the results depend on the processing

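Of the 10 demethylases, *Kdm3a*, *Kdm4a*, *Kdm4b*, *Kdm5a* and *Kdm6b* kept their direction and their call under all 16 alternatives, and no member changed direction under any of them. *Kdm2b* lost its call under quantile normalization (-0.056), in eBayes without a trend (-0.12) and without WT replicate 1 or any 1 of the N275D replicates, and *Kdm3b* lost it without N275D replicate 2. *Kdm5b* gained a call under quantile normalization (0.12), *Kdm4c* without WT replicate 2 and *Kdm2a* without WT replicate 3. With 1 library left out, log2 fold changes ranged from -0.11 to -0.068 for *Kdm2a*, -0.14 to -0.095 for *Kdm2b*, 0.12 to 0.17 for *Kdm3b*, 0.057 to 0.18 for *Kdm4c* and 0.024 to 0.082 for *Kdm5b*. Over the same fits 3 to 5 members were called higher and 2 to 4 lower, and the log2 ratio difference of *Kdm4a* to *Kdm4b* ranged from -0.042 to 0.0074, so that it changed sign, those of *Kdm4a* to *Kdm4c* from 0.12 to 0.31 and of *Kdm2a* to *Kdm2b* from 0.019 to 0.071. Genes called at 2-fold numbered 427, and 259 with a pseudocount of 10, 703 with all genes with a mean above 0 and 162 with a mean of at least 100, where fewer genes are tested. The median shift of a gene was 0.0078 on the log2 scale under TMM scaling and -0.013 under quantile normalization. Quantile normalization nevertheless raised the log2 fold change of each of the 10 demethylases. *Kdm2a* went from -0.084 to -0.027, *Kdm2b* from -0.12 to -0.056, *Kdm4a* from 0.34 to 0.40 and *Kdm5b* from 0.055 to 0.12. The rise was smaller for *Kdm6b*, from -0.37 to -0.35. Same-numbered libraries did not deviate together (correlations of -0.045, 0.041 and -0.083 for the numbers 1, 2 and 3). With 3 libraries per genotype this cannot exclude that same-numbered cultures were set up together, which the labels do not say. With the replicate number as a block, 5727 genes were called at any fold change in place of 6056, with 4 members higher and 3 lower and no call of a member changed. Other causes of these shifts were not tested. With 1 library left out, counts of lists that moved by over 1.5 times were those of the Polycomb complex of KDM2B (1 to 2 higher, 1 to 2 lower), H3K36 methyltransferases (1 to 2 lower), H3K9 methyltransferases (0 to 1 higher), TET and AlkB genes (1 to 2 lower) and CoREST genes (0 to 1 lower). No search for outlying libraries was made, as each genotype has 3.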
